A study of Arabidopsis thaliana with 6 samples.

Results

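The genes described here are those of the Arabidopsis thaliana plastid genome that encode subunits of photosystem I (psa), photosystem II (psb), the cytochrome b6f complex (pet), the plastid ATP synthase (atp), the NDH complex (ndh) and the large subunit of Rubisco (rbc). The rule for a member reads the chromosome and the symbol of the RefSeq gene table: a probe set (the group of short probes that reads one transcript on the Affymetrix ATH1 array) was taken where it named a single gene of the plastid with such a symbol. This gave 43 probe sets for 43 genes, of 22746 probe sets on the array. The gene table lists 45 such genes. The other two are the copies of ndhB, which share a probe set that names both, so ndhB has no value here. All 6 arrays read RNA of whole 10-day-old seedlings of the Columbia ecotype, grown on filter paper. The 3 scutellarin samples were given 100 µM scutellarin, a plant flavone glucuronide, in 1% DMSO, and the 3 mock samples 1% DMSO alone. In both groups the seeds stood in the dark at 4 °C for 2 days before the move to 25 °C. The day then held 12 h of light at 120 µmol m⁻² s⁻¹, and treatment lasted 10 days. The labels call the samples of a group biological replicates from independent experiments, with 100 seedlings pooled in each. No genotype other than Columbia was used.

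Chloroplast thylakoids hold both photosystems, which use light to move electrons from water to NADP. The cytochrome b6f complex passes electrons between them, and the ATP synthase uses the proton gradient that results. The NDH complex returns electrons from the stromal side of photosystem I to the plastoquinone pool, and Rubisco fixes carbon dioxide. Each of these complexes is built from subunits encoded in the plastid together with others encoded in the nucleus. Plastid genes lie largely in clusters that are transcribed together into long RNAs, from promoters of a bacterial-type plastid polymerase and of phage-type polymerases made in the nucleus.

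The arrays had median intensities between 144.8 and 162.3, and Pearson's r of log2 intensities over the tested probe sets was 0.966 to 0.976 for pairs of arrays within a group and 0.900 to 0.931 for pairs across groups. Scutellarin replicate 1 did not stand apart there: it correlated at 0.971 and 0.972 with scutellarin replicates 2 and 3. For the plastid genes described here it did. Their mean log2 intensity, over the tested members, was 10.32 in scutellarin replicate 1, 11.17 in replicate 2 and 11.26 in replicate 3, against 11.32, 11.65 and 11.51 in mock replicates 1 to 3. The log2 change of each tested member and the counts of members that fell are therefore also given without scutellarin replicate 1.

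After 10 days of scutellarin, 13 of the 42 tested genes fell, 29 did not pass the test and none rose. The median log2 change (scutellarin minus mock) was -0.58. Among all 15923 tested probe sets 9.11% fell and 10.3% rose, and the median change was -0.04. A gene is said to fall at an adjusted p under 0.05 in limma, with Benjamini-Hochberg adjustment over all tested probe sets, and every adjusted p for a gene comes from that fit. The share of members that fell was 31.0%, and 41 of the 42 had a negative change, as did 53.7% of all tested probe sets. Changes were small: ndhJ was the 1 called gene whose fall reached 2-fold. The 13 that fell were psaB, psbC, psbF, psbH, psbZ, petB, atpA, atpB, atpH, ndhA, ndhI, ndhJ and rbcL. Without scutellarin replicate 1 the median change was -0.29 and 9 genes fell, all of them among the 13, where 8.14% of all tested probe sets fell and 8.91% rose. With scutellarin replicate 1 left out, psbH, petB, atpA and ndhI were no longer called. Left out instead, mock replicate 2 gave 8 called genes, and so did mock replicate 3. In these 2 fits 802 and 934 of all tested probe sets fell. With no variance trend in the fit, 4 genes fell, psaB, psbC, atpB and rbcL, where 862 of all tested probe sets fell. In bulk samples, fewer cells of a type and less RNA per cell cannot be told apart. Members of a cluster can be read from a shared RNA, and are not independent of each other.

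**Figure D1:**
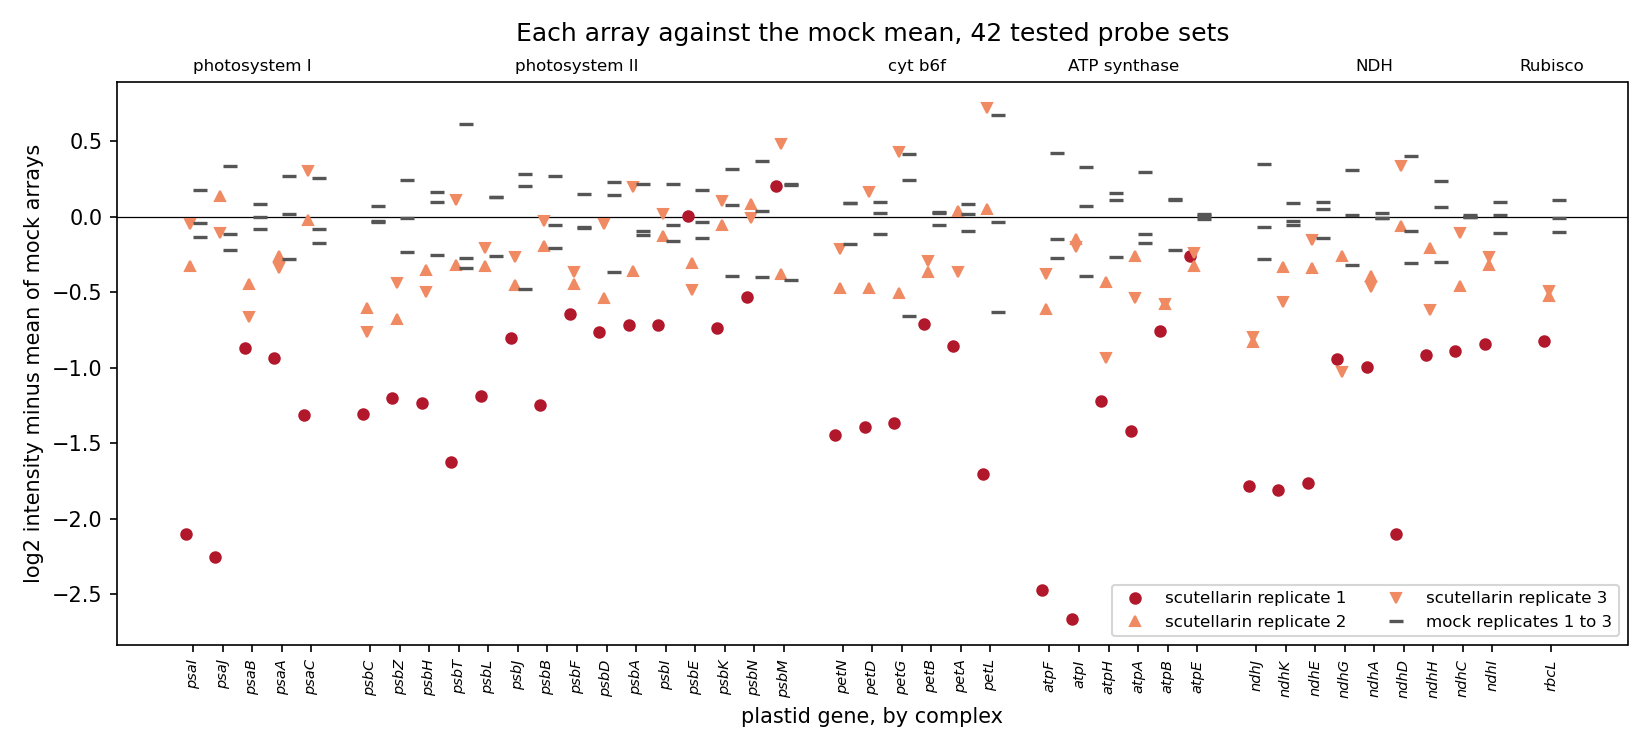
The vertical axis gives the log2 intensity of each array minus the mean of the 3 mock arrays for 42 tested probe sets, grouped by complex. Red circles (scutellarin replicate 1) are the lowest of the 6 arrays for 38 genes, with orange triangles for scutellarin replicates 2 and 3 and grey bars for mock. The gap of replicate 1 to the mean of replicates 2 and 3 had a median of -0.65 and ran from -2.49 to 0.40, so it was wide for some genes and narrow for others.

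Photosystem I had 5 tested genes, and their median log2 change was -0.66: 1 fell and 4 did not pass. The median was -0.19 without scutellarin replicate 1, and the same gene fell. The gene that fell was psaB, which with psaA encodes the paired core proteins that bind the reaction centre chlorophylls. Intensities of psaB were 12298, 16506.5 and 14176 in scutellarin replicates 1 to 3, against 21213, 22417 and 23805 in mock replicates 1 to 3. All scutellarin arrays lay below all mock arrays, with a mean of 14327 ± 2108 in scutellarin and 22478 ± 1297 in mock (SD, n = 3 each) and a log2 change of -0.66 ± 0.12 (SE, adjusted p = 0.00316). That change was -0.55 without scutellarin replicate 1 (adjusted p = 0.00781), and the call held in all 15 alternative settings. Intensities of psaA were 93.3, 149.3 and 141.4 with scutellarin, against 147.0, 215.8 and 180.7 in mock. Scutellarin replicate 2 overlapped the mock range, and psaA did not pass, with a log2 change of -0.51 ± 0.25 (adjusted p = 0.173), or -0.30 without scutellarin replicate 1.

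Within photosystem I, the small membrane subunit genes psaI and psaJ had the widest gap between scutellarin replicate 1 and the other two scutellarin arrays. Intensities of psaI were 1217 in scutellarin replicate 1 but 4159 and 5044 in replicates 2 and 3, against 5074, 5910 and 4753 in mock. For psaJ they were 404.2, then 2125 and 1790.3, against 2438, 1658 and 1782 in mock. Scutellarin replicate 1 was thus far below the other arrays for both genes. Replicates 2 and 3 lay within the mock range for psaJ, and for psaI replicate 3 did and replicate 2 lay below it. Neither passed: the log2 change was -0.83 ± 0.39 for psaI (adjusted p = 0.159) and -0.74 ± 0.46 for psaJ (adjusted p = 0.292), and without scutellarin replicate 1 it was -0.19 and 0.01. The remaining member, psaC, carries the terminal iron-sulphur clusters. Its intensities were 40.7, 99.3 and 124.5 with scutellarin, against 95.5, 120.7 and 89.3 in mock, and its log2 change was -0.34 ± 0.39 (adjusted p = 0.574), or 0.14 without scutellarin replicate 1.

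In photosystem II, the median change was -0.49, and 4 of 15 tested genes fell while 11 did not pass. The median was -0.27 and 3 fell without scutellarin replicate 1. The largest fall was that of psbC, which encodes CP43, a core antenna protein. Intensities of psbC were 3462, 5623 and 5038 with scutellarin, against 8387, 8342 and 8989 in mock. The groups were well apart, at 4708 ± 1118 in scutellarin and 8573 ± 361 in mock (SD, n = 3 each), and the log2 change was -0.89 ± 0.16 (adjusted p = 0.00225). This call held in all 15 alternative settings, and the change was -0.69 without scutellarin replicate 1 (adjusted p = 0.00237). Its cluster neighbour psbZ, a small subunit gene, had intensities of 6899, 9893 and 11708 with scutellarin, against 13498, 18706 and 15779 in mock, again without overlap. The log2 change of psbZ was -0.77 ± 0.18 (adjusted p = 0.0110), or -0.56 without scutellarin replicate 1 (adjusted p = 0.0241), and its call was lost without mock replicate 2 (adjusted p = 0.0547). The first gene of that cluster, psbD, encodes the reaction centre protein D2. Its intensities were 515.4, 603.9 and 846.7 with scutellarin, against 679.6, 1025 and 968.3 in mock. Scutellarin replicate 3 overlapped the mock range, and psbD did not pass (log2 change -0.45 ± 0.21, adjusted p = 0.146).

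The reaction centre protein D1, which is broken down and replaced in the light faster than other thylakoid proteins, is encoded by psbA. Its intensities were 9389, 12069.6 and 17750 with scutellarin, against 14245, 18006 and 14460 in mock. Scutellarin replicate 3 lay within the mock range, and psbA did not pass (log2 change -0.29 ± 0.19, adjusted p = 0.320). Without scutellarin replicate 1 its change was -0.08 and without scutellarin replicate 3 it was -0.54 (adjusted p = 0.0401), so the call depended on which array was left out. The other two called genes were psbF, which encodes a subunit of cytochrome b559, and psbH, a small subunit gene. Intensities of psbF were 13228, 15136 and 16004 with scutellarin, against 19678, 19595 and 22852 in mock, a log2 change of -0.49 ± 0.12 (adjusted p = 0.0127) that was -0.41 without scutellarin replicate 1 (adjusted p = 0.0318) and not called without mock replicate 3 (adjusted p = 0.0672). Nor was psbF called with no filter, no variance trend or quantile normalization (adjusted p = 0.0567, 0.0715 and 0.0813). Intensities of psbH were 1006, 1848 and 1677 with scutellarin, against 1980.3, 2649 and 2528 in mock, a log2 change of -0.70 ± 0.21 (adjusted p = 0.0334). The change of psbH was -0.43 without scutellarin replicate 1, and its call was lost without scutellarin replicate 1 or mock replicate 2 or 3 (adjusted p = 0.0778 to 0.118).

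Among the 11 photosystem II genes that did not pass, psbM alone had a positive change. It encodes a small subunit at the interface of the photosystem II dimer. Its intensities were 28873, 19338 and 35074 with scutellarin, against 18799, 29012 and 29168 in mock, so the groups overlapped (log2 change 0.10 ± 0.21, adjusted p = 0.786, and 0.05 without scutellarin replicate 1). The sign turned without mock replicate 1 (-0.11) or scutellarin replicate 3 (-0.09). The gene of the other cytochrome b559 subunit, psbE, went against the pattern of the arrays, at 11720, 9441 and 8329 with scutellarin, against 11410, 10591 and 13165 in mock. Scutellarin replicate 1 was the highest of the 3 treated arrays there, and the log2 change was -0.26 ± 0.14 with all arrays (adjusted p = 0.217) and -0.40 without that array (adjusted p = 0.0537). The other 9 had log2 changes of -0.61 for psbT, -0.57 for psbL, -0.51 for psbJ, -0.49 for psbB (the antenna protein CP47), -0.45 for psbD, -0.29 for psbA, -0.28 for psbI, -0.23 for psbK and -0.15 for psbN, whose product takes part in assembly. Without scutellarin replicate 1 these changes were nearer to 0, at -0.36 for psbJ, -0.29 for psbD, -0.27 for psbL, -0.11 for psbB, -0.10 for psbT, -0.08 for psbA and -0.06 for psbI, and the signs of psbK (0.02) and psbN (0.04) turned.

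Cytochrome b6f genes gave 1 fall among 6 tested, with a median of -0.47. The median was -0.16 without scutellarin replicate 1. The gene that fell was petB, which encodes cytochrome b6. Intensities of petB were 14828, 18839.8 and 19788 with scutellarin, against 23368, 24627 and 24777 in mock, without overlap. The log2 change was -0.46 ± 0.12 (adjusted p = 0.0228), and -0.33 without scutellarin replicate 1, where it just missed the threshold (adjusted p = 0.0502). The call was also lost without mock replicate 2 or 3 (adjusted p = 0.0800 and 0.0784). For petA, the cytochrome f gene, intensities were 6383, 11859 and 8964 with scutellarin, against 10823, 11688 and 12250 in mock. Scutellarin replicate 2 lay within the mock range, and petA did not pass (log2 change -0.40 ± 0.18, adjusted p = 0.149), though it did without that array (adjusted p = 0.0163). The change of petA was -0.17 without scutellarin replicate 1.

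The genes of the small b6f subunits had wide spreads. The most negative change was that of petN, with intensities of 80.5, 157.7 and 188.6 with scutellarin, against 193.5, 233.6 and 233.2 in mock (log2 change -0.71 ± 0.29, adjusted p = 0.105, and -0.35 without scutellarin replicate 1). The least negative was that of petL, with 356.3, 1199 and 1911 with scutellarin, against 747.3, 1847 and 1131 in mock (-0.31 ± 0.48, adjusted p = 0.696). Both groups spanned more than a doubling for petL, and its change was 0.38 without scutellarin replicate 1 and 0.02 without mock replicate 2. The remaining pair were petD, the subunit IV gene, at -0.57 ± 0.36 and petG at -0.48 ± 0.38, and neither passed. Their changes were -0.16 and -0.04 without scutellarin replicate 1.

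**Figure D2:**
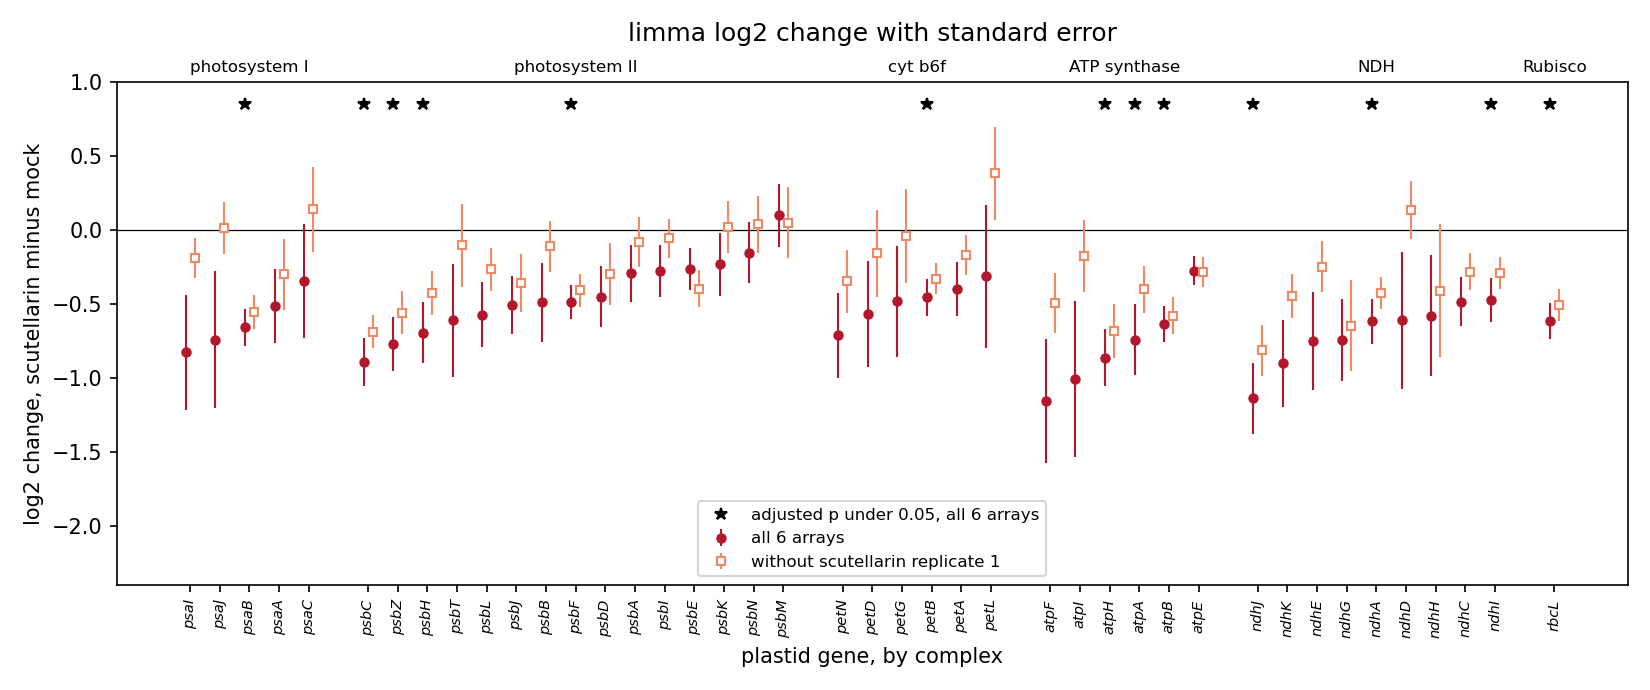
The vertical axis gives the limma log2 change (scutellarin minus mock) with its standard error, with all 6 arrays (filled circles) and without scutellarin replicate 1 (open squares), and stars mark the 13 genes that fell with all 6 arrays. Most squares lie nearer to 0 than their circles, while psaB, psbF, atpB, atpE, psbM, ndhG and rbcL moved little. The squares of psbE (-0.40) and petL (0.38) lie further from 0, that of petL on the positive side.

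ATP synthase genes had the most negative median of the complexes with more than 1 gene, at -0.80, and 3 of 6 fell. Their median was -0.45 and 2 fell without scutellarin replicate 1, and without scutellarin replicate 3 that of cytochrome b6f was the more negative (-0.88, and -0.84 for the ATP synthase). Those that fell with all arrays were the genes of the catalytic-head subunits alpha (atpA) and beta (atpB) and of the membrane ring subunit c (atpH). Intensities of atpB were 20428, 23111 and 23146 with scutellarin, against 29591, 37196 and 37453 in mock. The scutellarin arrays lay close together and below the mock arrays, at 22228 ± 1559 in scutellarin and 34746.5 ± 4467 in mock (SD, n = 3 each), and the log2 change was -0.64 ± 0.12 (adjusted p = 0.00341). Without scutellarin replicate 1 it was -0.58 (adjusted p = 0.00969), and all 15 alternative settings called it. Intensities of atpH were 728.5, 1259 and 887.9 with scutellarin, against 1892, 1413 and 1836 in mock, a log2 change of -0.86 ± 0.19 (adjusted p = 0.00843). It passed without any 1 array, at -0.68 without scutellarin replicate 1, but not with no variance trend (adjusted p = 0.0521). Intensities of atpA were 2845, 6355 and 5236 with scutellarin, against 6738, 9344 and 7039 in mock. The log2 change of atpA was -0.74 ± 0.24, barely past the threshold (adjusted p = 0.0490), and the call was lost without any 1 array other than scutellarin replicate 2 (adjusted p = 0.0555 to 0.169). The change of atpA was -0.40 without scutellarin replicate 1.

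The stator subunit gene atpF had the most negative change of all members, -1.15 ± 0.42, and still did not pass (adjusted p = 0.0747). Its intensities were 188.8, 684.0 and 806.1 with scutellarin, against 943.2, 1405 and 866.8 in mock. All scutellarin arrays were below all mock arrays, but replicate 1 was far below the other two, and without it the change was -0.50 (adjusted p = 0.123). For atpI, the gene of membrane subunit a, intensities were 35.2, 201.1 and 194.2 with scutellarin, against 169.7, 279.6 and 234.5 in mock, and the log2 change was -1.01 ± 0.53 (adjusted p = 0.209) or -0.18 without scutellarin replicate 1. The least negative member was atpE, the subunit epsilon gene, whose arrays hardly varied within a group: 31564, 30068 and 31938 with scutellarin, against 38109, 37281 and 37862 in mock. The groups did not overlap, yet a log2 change of -0.28 ± 0.10 did not pass (adjusted p = 0.0720), and it was as large without scutellarin replicate 1 (-0.28). The change of atpE depended on the normalization, and after quantile normalization it was -0.03 (adjusted p = 0.855).

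The NDH genes had a median change of -0.62. Of the 9 tested, 3 fell and 6 did not pass. The median was -0.41 and 2 fell without scutellarin replicate 1. The most negative was ndhJ, whose product belongs to the arm of the complex that faces the stroma. Intensities of ndhJ were 890.5, 1727 and 1766 with scutellarin, against 2526, 3911 and 2934 in mock, without overlap. The means were 1461 ± 495 in scutellarin and 3123 ± 712 in mock (SD, n = 3 each), and the log2 change was -1.14 ± 0.24 (adjusted p = 0.00630). It was -0.81 without scutellarin replicate 1 (adjusted p = 0.00871), and the call held without any 1 array but not with no variance trend (adjusted p = 0.0501). The membrane subunit gene ndhA had intensities of 3572, 5430.5 and 5167 with scutellarin, against 7077, 7078 and 7232 in mock, a log2 change of -0.62 ± 0.15 (adjusted p = 0.0133). It also passed without any 1 array, at -0.43 without scutellarin replicate 1, and did not pass with no variance trend (adjusted p = 0.0720). The least negative was ndhI, the gene of an iron-sulphur subunit, with 18658, 26847.5 and 27835 with scutellarin, against 31039, 33708 and 35856 in mock. Its log2 change of -0.48 ± 0.15 (adjusted p = 0.0416) was not called without scutellarin replicate 1 or mock replicate 2 or 3 (adjusted p = 0.0877 to 0.136), and it was -0.29 without that scutellarin array and -0.19 after quantile normalization (adjusted p = 0.369).

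NDH genes that did not pass included ndhK and ndhC, which lie beside ndhJ. Intensities of ndhK were 254.6, 708.0 and 603.0 with scutellarin, against 855.8, 947.6 and 873.8 in mock (log2 change -0.90 ± 0.29, adjusted p = 0.0504). Those of ndhC were 5875, 7916 and 10096.8 with scutellarin, against 10939, 10828 and 10851 in mock (-0.48 ± 0.16, adjusted p = 0.0579). The groups did not overlap for either gene, and both were close to the threshold. The change was -0.45 for ndhK and -0.28 for ndhC without scutellarin replicate 1. The other 4 had log2 changes of -0.75 for ndhE, -0.74 for ndhG, -0.61 for ndhD and -0.58 for ndhH. They were -0.25 for ndhE, -0.65 for ndhG and -0.41 for ndhH without scutellarin replicate 1. For ndhD, an antiporter-like membrane subunit gene, intensities were 1095 in scutellarin replicate 1 and 4510 and 5938 in replicates 2 and 3, against 4407, 6218 and 3808 in mock, and the change was 0.14 without scutellarin replicate 1. The remaining member of all 43, ndhF, was below the filter on low values and was not tested. It was read at 14.7, 47.7 and 40.6 with scutellarin, against 4.77, 22.0 and 17.97 in mock.

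Rubisco has 1 plastid gene, rbcL, which encodes the large, catalytic subunit, and it fell. Intensities were 7829, 9649 and 9858 with scutellarin, against 13764, 12938 and 14966 in mock. The groups were apart by more than their spread, at 9112 ± 1116 in scutellarin and 13889 ± 1019.9 in mock (SD, n = 3 each), and the log2 change was -0.61 ± 0.12 (adjusted p = 0.00438). Without scutellarin replicate 1 it was -0.51 (adjusted p = 0.0108), and the call held in all 15 alternative settings. Only psaB, psbC and atpB among the other members were called as often.

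Scutellarin replicate 1 was the lowest of the 6 arrays for 38 of 42 members, where this held for 19% of all tested probe sets. The exceptions were psbE, psbM, atpE and ndhG. Against the mean of the mock arrays, scutellarin replicate 1 had a median log2 difference of -1.09 over the members (range -2.67 for atpI to 0.20 for psbM). The same median was -0.34 for replicate 2 and -0.25 for replicate 3, and over all tested probe sets it was -0.04, 0.02 and -0.05 for replicates 1 to 3. Replicate 1 was below all mock arrays for 40 of 42 members (36.7% of all tested probe sets), replicate 2 for 25 (31.9%) and replicate 3 for 24 (38.5%). Scutellarin replicate 1 lay at least 2-fold below the mock mean for 21 members, against 4.92% of all tested probe sets, and the mean of replicates 2 and 3 did so for no member, against 2.64%. Replicates 2 and 3 were nonetheless below the mock mean, on average, for 35 of 42 members, against 8394 of all 15923 tested probe sets. Both lay below all mock arrays for 20 of 42 members, where 23.9% of all tested probe sets did. All 3 scutellarin arrays lay below all mock arrays for 19 of 42 (18.6% of all tested probe sets).

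The complexes differed most in scutellarin replicate 1. Its median difference from the mock mean was -1.38 for cytochrome b6f, -1.32 for the ATP synthase, -1.31 for photosystem I, -0.997 for NDH, -0.82 for rbcL and -0.77 for photosystem II. Averaged over replicates 2 and 3, the order was another: -0.51 for rbcL, -0.45 for the ATP synthase, -0.41 for NDH, -0.27 for photosystem II, -0.19 for photosystem I and -0.16 for cytochrome b6f. In replicate 3, the medians of photosystem I (-0.11), photosystem II (-0.05) and cytochrome b6f (-0.03) lay within the range of the mock arrays, and those of the ATP synthase (-0.46), NDH (-0.46) and rbcL (-0.49) lay below it. Replicate 2 lay below the mock range for every complex, between -0.26 for photosystem I and -0.52 for rbcL. Both arrays thus had rbcL, ATP synthase and NDH transcripts below mock, and they differed on the other 3 complexes. Differences between complexes were not tested, as the complexes hold 1 to 15 genes each.

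**Figure D3:**
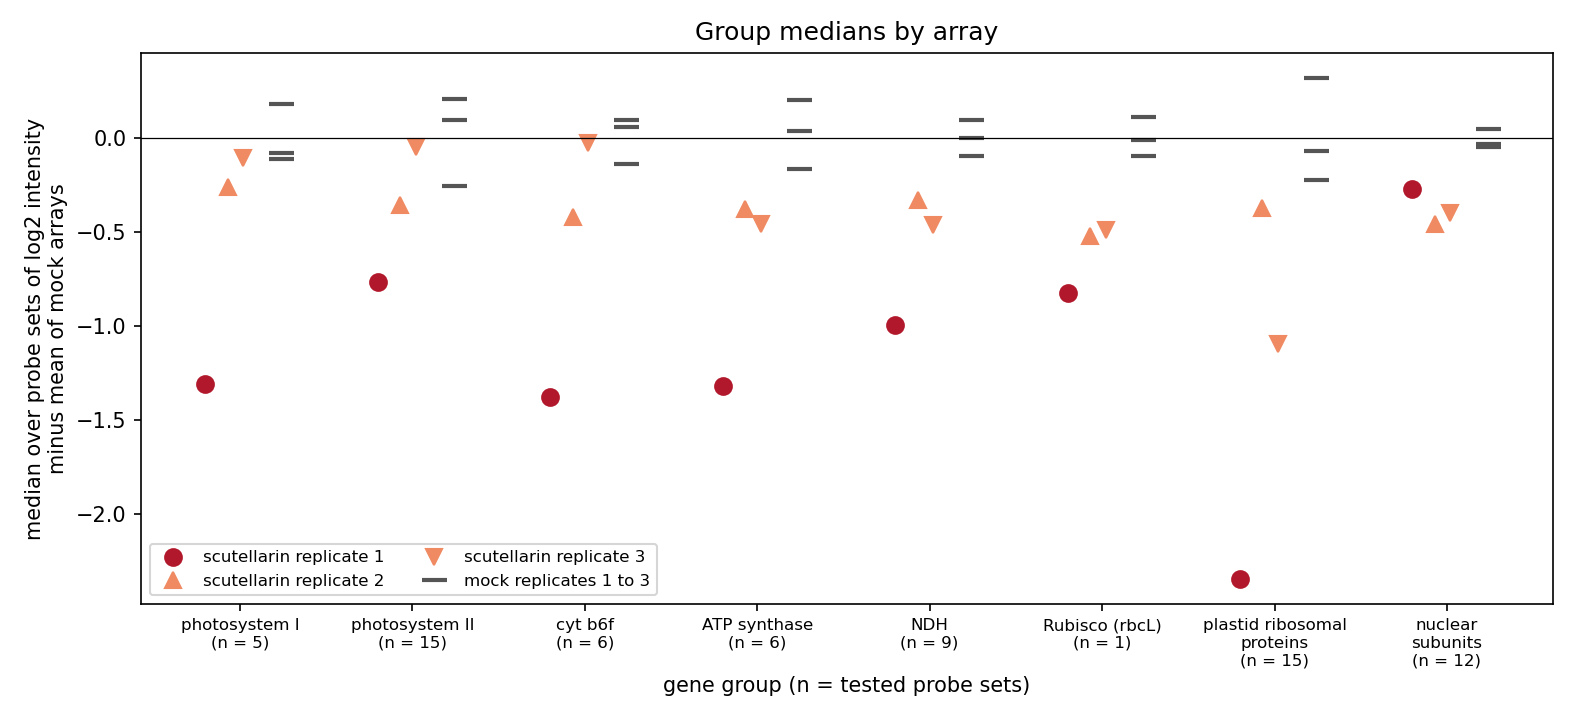
The vertical axis gives the median over a group's tested probe sets of the log2 intensity minus the mean of the mock arrays, for each array. Nuclear subunits include Rubisco activase. Scutellarin replicate 1 is lowest in each complex and in the plastid ribosomal protein genes (-2.34) but not in the nuclear subunits (-0.27, against -0.46 and -0.40 for replicates 2 and 3).

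The brightness of a probe set moved with the difference in scutellarin replicate 1. Across the 42 members, which share the same 6 arrays, the difference of that array from the mock mean correlated with mean log2 intensity at 0.49 (Pearson's r) and 0.62 (Spearman's rho). Single mock arrays also varied with brightness: their differences from the mock mean gave r and rho of 0.09 and 0.10 for mock replicate 1, -0.36 and -0.41 for mock replicate 2, and 0.36 and 0.37 for mock replicate 3. For the mean of scutellarin replicates 2 and 3 the values were -0.11 and -0.11, and across all tested probe sets those for scutellarin replicate 1 were -0.03 and 0.02. In the 21 dimmer members the median difference in replicate 1 was -1.37, and in the 21 brighter ones -0.82, while the medians for replicates 2 and 3 were -0.27 and -0.33. The 21 brighter members held 10 of the 13 genes that fell. Their median standard error was 0.16, and that of the dimmer ones 0.29. The genes that fell were thus more often among those with the smaller standard errors. How far brightness accounts for the low values of scutellarin replicate 1 was not tested.

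**Figure D4:**
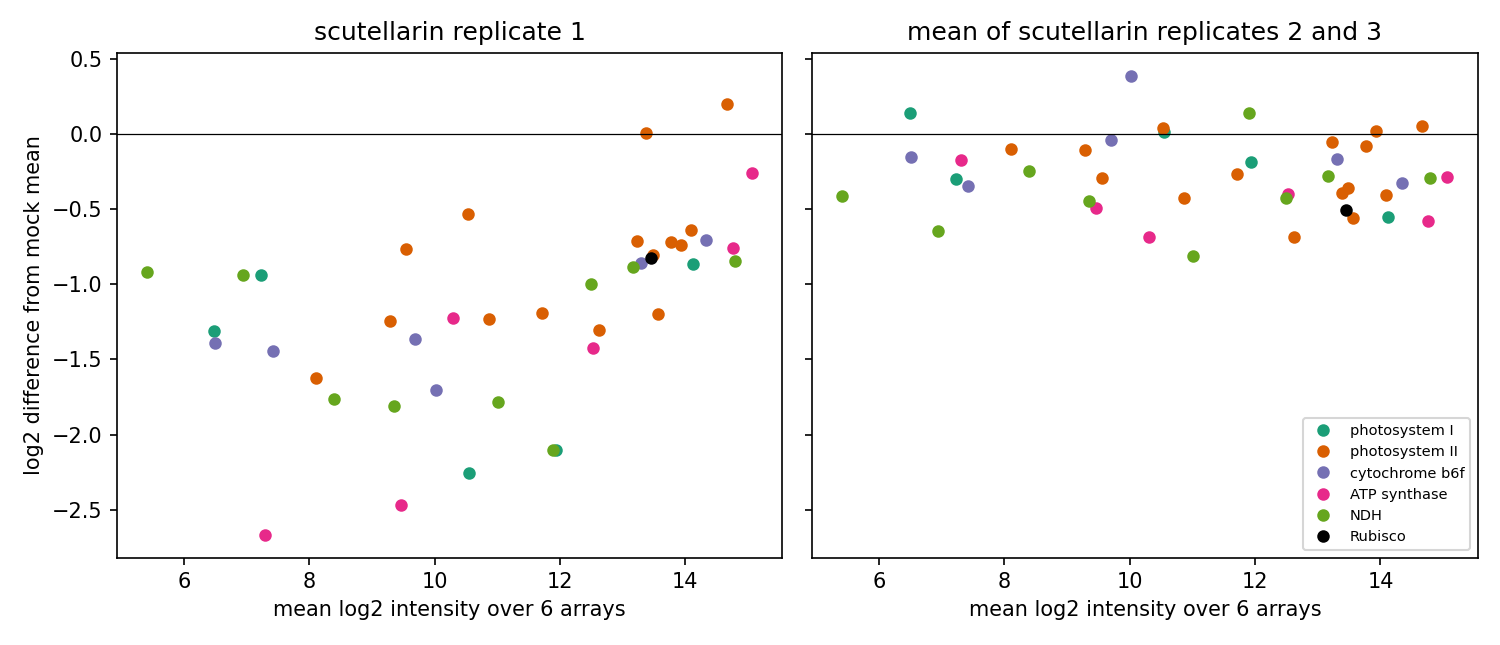
Each point is 1 of 42 genes, coloured by complex, with the mean log2 intensity over 6 arrays on the horizontal axis and the log2 difference from the mock mean on the vertical axis. Dimmer genes lie lower in scutellarin replicate 1 (left, Pearson's r 0.49), and no such slope is seen for the mean of replicates 2 and 3 (right, r -0.11).

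Genes of a shared transcription unit did not always have like log2 changes. Differences between genes of a unit were not tested. In the psbB-psbT-psbH-petB-petD unit, which spans photosystem II and cytochrome b6f, log2 changes lay between -0.70 (psbH) and -0.46 (petB), and 2 of 5 genes fell. In the psbD-psbC-psbZ unit they lay between -0.89 and -0.45, and 2 of 3 fell. The atpI-atpH-atpF-atpA unit had the widest span in scutellarin replicate 1, with differences from the mock mean of -2.67 for atpI, -2.47 for atpF, -1.42 for atpA and -1.22 for atpH, while for replicates 2 and 3 they lay between -0.68 and -0.18. The atpI probe set read 35.2 in replicate 1, below the array median of 145.9, and its standard error (0.53) was the largest of the members. Genes of a unit can be read at unlike brightness, as with petD and petB (means of 81.7 and 17818 with scutellarin). The part of brightness in these spans was not tested. In the other ATP synthase unit, atpB and atpE differed by -0.76 and -0.26 in replicate 1. In the petL-petG-psaJ unit, the 3 genes differed by -2.26 to -1.37 in scutellarin replicate 1 and by -0.04 to 0.38 in the mean of replicates 2 and 3. For petG that mean joins -0.51 in replicate 2 and 0.43 in replicate 3. Mock replicate 1 also lay below the mock mean for petL (-0.63) and petG (-0.66), and above it for psaJ (0.34). In the ndhD-psaC-ndhE-ndhG-ndhI-ndhA-ndhH unit, 2 of 7 genes fell, and differences in replicate 1 ran from -2.10 for ndhD to -0.84 for ndhI. For psbK and psbI they were -0.74 and -0.72, and for both the mean of replicates 2 and 3 was within 0.06 of mock.

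**Figure D5:**
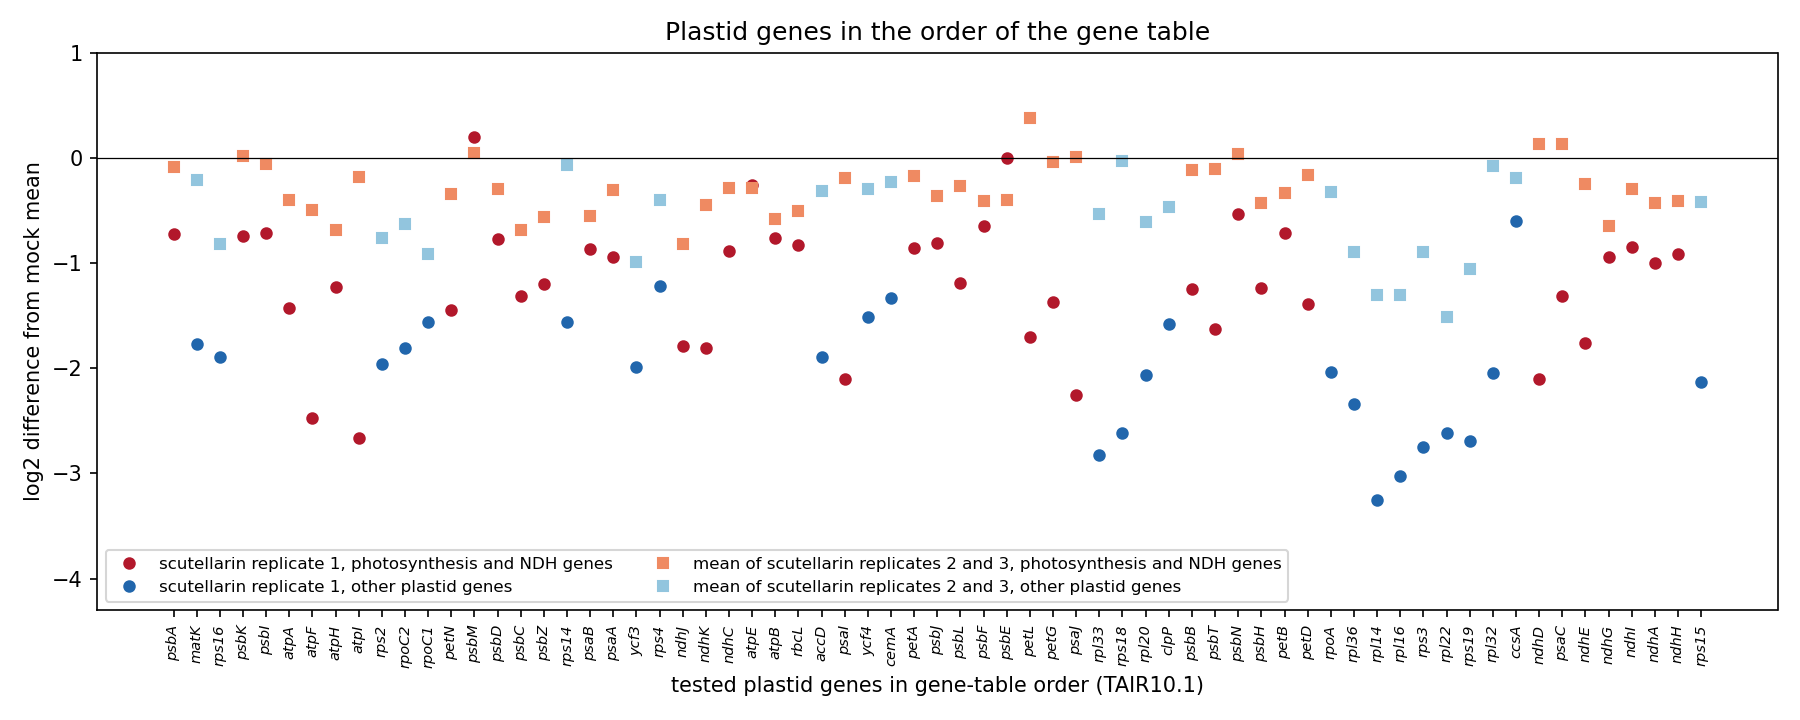
Tested plastid genes stand in the order of the gene table, with the log2 difference from the mock mean on the vertical axis for scutellarin replicate 1 (circles) and the mean of replicates 2 and 3 (squares), photosynthesis and NDH genes in red and orange and other plastid genes in blue. In scutellarin replicate 1 the lowest photosynthesis genes (atpI at -2.67 and atpF at -2.47) are above the lowest ribosomal protein genes.

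Plastid ribosomal protein and polymerase genes had more negative medians. Of 15 tested ribosomal protein genes 10 fell, with a median log2 change of -1.18, and of 3 tested polymerase genes 2 fell, with a median of -1.02. Another polymerase gene, rpoB, was below the filter on low values and was not tested. Its log2 differences from the mock mean were positive, at 0.18, 0.96 and 0.76 in scutellarin replicates 1 to 3. Of the 7 other tested plastid genes 2 fell, a share close to that of the photosynthesis and NDH genes, with a median of -0.73. Without scutellarin replicate 1 the counts were 5 of 15, 1 of 3 and 2 of 7, and the medians -0.76, -0.62 and -0.30, against -0.29 for the photosynthesis and NDH genes. The median difference of scutellarin replicate 1 from mock was -2.34 for the ribosomal protein genes, against -1.09 for the photosynthesis and NDH genes. Replicate 2 hardly separated the ribosomal protein genes from the photosynthesis and NDH genes (-0.38 and -0.34), and replicate 3 did (-1.10 and -0.25). No test was made of the difference between these groups.

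Of 53 listed nuclear genes for subunits of the same complexes and Rubisco activase, 12 were readable, that is, had a probe set that names them alone. Of these 6 fell and none rose, with a median log2 change of -0.40. They were PSAN of photosystem I, PSBY and PSB27 of photosystem II, NdhL and NdhS of the NDH complex, and RCA, which encodes Rubisco activase. Intensities of NdhL were 985.1, 1197 and 848.8 with scutellarin, against 2157, 1814 and 1685 in mock, without overlap, and its log2 change was -0.91 ± 0.15 (adjusted p = 0.00165). PSAN changed by -0.64 ± 0.11 (adjusted p = 0.00189) and NdhS by -0.57 ± 0.13 (adjusted p = 0.00969). Scutellarin replicate 1 was the lowest array for 3 of the 12 nuclear genes. Their median difference from mock was -0.27 in scutellarin replicate 1, -0.46 in replicate 2 and -0.40 in replicate 3, so the low position of replicate 1 among plastid genes was not seen in them. Without that array 8 of the 12 fell. HCF101, which encodes a factor needed to build photosystem I and the 1 readable gene of 8 plastid mRNA and assembly factors, changed by -0.59 ± 0.14 (adjusted p = 0.0101). In the list of sigma factors and phage-type polymerases, 1 of 8 genes was readable and it was below the filter, and none of 12 polymerase-associated proteins was readable.

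Markers of tissues moved with the treatment in the same seedlings. Of 12 root markers, 6 were readable, and 4 rose and 2 fell. The summed intensity of the 6 was between 13621 and 16199 in the scutellarin arrays, against 8418 to 9845 in the mock arrays. Most of that sum was PYK10, a root beta-glucosidase gene, at 9663, 12583 and 12135.5 with scutellarin, against 5912, 6011 and 5349 in mock. The 2 that fell, AT1G09750 and AT1G62500, had log2 changes of -1.19 and -1.16. The 4 that rose were PYK10 (0.99), AT3G22620 (1.70), EXPA18 (4.82) and EXPA7 (5.27). Mock means were low for EXPA18 (18.1) and EXPA7 (10.3). A sum or a median over the list thus hides the markers that fell. None of the 6 was at the floor of the scale, where the lowest single value was 1.81, for EXPA7 in a mock array. Of 11 shoot markers 1 was readable, RCA, which lay between 26123 and 30428 in scutellarin and between 32598 and 40661 in mock. The root markers differed little between scutellarin arrays, with median differences from mock of 1.30, 1.43 and 1.29 in replicates 1 to 3. Their part in the lower plastid transcript levels was not tested.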

How the data were processed

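Per the submitters' processing notes, the deposited intensity values came from MAS5. For its version, its settings and the primer of the cDNA step, nothing is given in the sources used here. Since most plastid transcripts lack a stable poly(A) tail, their yield can depend on that primer. The deposited intensities are linear, 1 value per probe set and array, with a lowest value of 1. Their mean, with 2% left out at each end, was 493.9 to 495.1 on all arrays, which shows a scaling between arrays. No detection call entered the tests. Values above the floor were never identical between arrays. The number of arrays limits the precision.

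Probe sets were named from a platform annotation table (13513 name 1 gene, 503 several, 8730 unnamed here) and matched by gene ID to the RefSeq table of TAIR10.1 (13436 matched). Mitochondrial genes were not matched and are not used here. No coordinates are printed, since the build of the array is unknown here. Intensities were log2-transformed, the 30% of probe sets with the lowest means were dropped, and limma 3.58.1 (in R 4.3.3), with a variance trend and two-sided tests, compared scutellarin with mock. Named genes were fixed by a rule: in each complex the most and the least negative change, and 10 core subunit genes; other members are given for completeness. Transcription units were written from textbook gene order; the genes of each unit are adjacent among these genes in the gene table, apart from psbN, which lies within the psbB unit on the opposite strand. The members and lists were chosen with earlier results of these data known. Figures were drawn with matplotlib 3.10.9. Alternatives changed the normalization (quantile, or median centring), the filter (none, or 50%), the offset (32 before log2), the variance prior (no trend, or robust) or the model (a replicate block). Further fits dropped each array in turn, or the 1061 probe sets whose suffix marks cross-hybridisation (none is a member).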

Additional observations from a re-analysis of the deposited data

How the results depend on the processing

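The number of members that fell was 13, and it was 4 with no variance trend, 8 to 17 without 1 array (8 without mock replicate 2 or 3, 9 without scutellarin replicate 1) and 9 to 18 in the other settings. No setting called a rise. Over all tested probe sets 1450 fell, 862 with no variance trend and 802 to 1437 without 1 array. In the other settings 1210 (no filter, with all 22746 probe sets tested) to 1621 (median centring) fell. Without 1 array, the median ran from -0.77 to -0.19 for photosystem I, -0.63 to -0.27 for photosystem II, -0.88 to -0.16 for cytochrome b6f, -1.03 to -0.45 for the ATP synthase and -0.88 to -0.41 for NDH, and for each complex the value nearest to 0 was that without scutellarin replicate 1. Signs turned only in genes that did not pass, when 1 array was left out. The range of the log2 change without 1 array was -0.43 to 0.021 for psbK, -0.35 to 0.037 for psbN, -0.11 to 0.34 for psbM, -0.83 to 0.38 for petL, -1.18 to 0.014 for psaJ, -1.08 to 0.14 for ndhD and -0.67 to 0.14 for psaC, and the highest value came without scutellarin replicate 1 for all but psbM. Scutellarin replicate 1 was the lowest array for 38 of 42 members. These highest values, and the medians nearest to 0, largely follow from that and add no further evidence. After quantile normalization ndhI, petB, psbF and atpA were not called (adjusted p = 0.0585 to 0.369). With no filter, ndhI, petB, psbF and atpA were not called either (adjusted p = 0.0567 to 0.139). The cause of these changes was not tested. The main fit did not pair arrays of equal replicate number. Over all tested probe sets, deviations of such arrays from their group means correlated at -0.04, -0.09 and 0.11. These values cannot show whether such arrays shared an experiment. The replicate block called 18 members, all 13 and also atpF, ndhC, ndhK, psbJ and psbL, while 1367 of all tested probe sets fell in that fit. Of all 42 tested members, 24 had an unadjusted p under 0.05 in the main limma fit. The like share of all tested probe sets was not counted, so this count cannot be read as particular to the members.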
